A study of Mus musculus with 12 samples.

Results

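The 10 genes followed here belong to the clade A serpin cluster on mouse chromosome 12 and encode proteins secreted by the liver. They were listed by symbol (Serpina1a, Serpina1b, Serpina1c, Serpina1d, Serpina1e, Serpina3k, Serpina3m, Serpina3n, Serpina6 and Serpina12), and all 10 were found among the 53465 gene rows of the count table. RNA-seq had been made from whole livers of male C57BL/6N mice of 3 ages: 3 months, called young here, 12 months, called middle-aged, and 18 months, called aged. Each age had 4 livers, and each liver came from 1 animal. No allele, transgene or treatment set the groups apart. Levels are given as normalised counts, that is, read counts divided by the size factor of each liver. In whole liver, fewer cells of a type and less RNA per cell cannot be told apart.

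Serpins are inhibitors that present a flexible reactive centre loop as bait. A protease that cuts the loop is trapped in a covalent complex, and the residues at the cut site set which proteases are caught. Hepatocytes secrete large amounts of clade A serpins into blood. The human genome has a single antitrypsin gene, SERPINA1, whereas mice carry several near-identical copies, and the single human antichymotrypsin gene, SERPINA3, likewise has a family of Serpina3 counterparts in mice. Some clade A members no longer inhibit proteases: Serpina6 encodes corticosteroid-binding globulin, the carrier of glucocorticoids in plasma.

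The near identity of the Serpina1 copies decides what a read can tell about them, so their sequences come first. All 10 genes lie on chromosome 12 in the GENCODE M21 annotation of GRCm38 and all are annotated as protein coding. On the minus strand are Serpina6 (103646630 to 103657212), Serpina1b (103728156 to 103830373), Serpina1d (103763594 to 103773592), Serpina1a (103853589 to 103863562), Serpina1c (103894926 to 103904887), Serpina1e (103946931 to 103958975) and Serpina12 (104028769 to 104044443). On the plus strand are Serpina3k (104338486 to 104346144), Serpina3m (104338486 to 104394257) and Serpina3n (104406729 to 104414329). The annotated span of Serpina1b contains that of Serpina1d.

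The stretch just before the start sites was nearly the same in the 5 Serpina1 copies. The sequences are those of RefSeq for GRCm38.p6, on the minus strand, at chr12:103863626-103863700 for Serpina1a, chr12:103738201-103738275 for Serpina1b, chr12:103904963-103905037 for Serpina1c, chr12:103773635-103773709 for Serpina1d and chr12:103956961-103957035 for Serpina1e. Each runs 5′ to 3′ over 75 bases and ends before the start that RefSeq gives. Capitals mark GTTAAT, a core bound by the hepatocyte nuclear factor HNF1.
Serpina1a: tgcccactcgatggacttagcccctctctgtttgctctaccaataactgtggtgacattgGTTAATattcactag
Serpina1b: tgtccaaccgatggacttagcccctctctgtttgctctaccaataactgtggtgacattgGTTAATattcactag
Serpina1c: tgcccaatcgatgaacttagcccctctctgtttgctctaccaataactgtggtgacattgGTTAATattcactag
Serpina1d: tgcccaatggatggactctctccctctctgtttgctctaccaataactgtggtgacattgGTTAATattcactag
Serpina1e: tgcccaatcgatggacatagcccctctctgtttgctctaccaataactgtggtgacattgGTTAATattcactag
Compared with Serpina1e, the stretch differed at 2 bases in Serpina1a, 3 in Serpina1b, 2 in Serpina1c and 6 in Serpina1d. GTTAAT began 16 to 27 bases before the RefSeq start in Serpina1a to Serpina1d and 78 bases before it in Serpina1e. Searched on both strands, GTTAAT was in the promoter window of these 5 members and of neither Serpina3n nor Serpina12, and in 7.2% of 27025 windows of the same length (300 bases, of which 250 lie before the start). TATAAA was in none of the 7 windows and in 14.16% of all windows. TTCNNNGAA, the core bound by STAT factors, was in none of the 7 and in 8.47% of all.

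The copies differed more in the bait than over the rest of the coding sequence. The coding stretch of the reactive centre loop, from its conserved hinge to the conserved end of the loop, is shown for the transcript of each gene with the longest open reading frame in GENCODE M21. Capitals mark the 18 of 81 bases that were not the same in all 5 copies.
Serpina1a: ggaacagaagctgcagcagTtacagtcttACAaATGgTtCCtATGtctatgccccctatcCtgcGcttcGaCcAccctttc
Serpina1b: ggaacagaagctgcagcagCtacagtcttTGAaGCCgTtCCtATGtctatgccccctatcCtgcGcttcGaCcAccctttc
Serpina1c: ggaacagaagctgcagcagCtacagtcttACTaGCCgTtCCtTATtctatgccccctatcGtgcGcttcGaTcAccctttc
Serpina1d: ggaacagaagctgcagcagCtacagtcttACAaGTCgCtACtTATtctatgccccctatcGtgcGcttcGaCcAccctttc
Serpina1e: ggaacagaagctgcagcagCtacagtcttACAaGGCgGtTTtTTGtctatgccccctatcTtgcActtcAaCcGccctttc
Over 1242 coding bases any pair of copies was 96.3 to 98.5% identical. Serpina1a and Serpina1c were the closest pair over the rest of the coding sequence (99.2%) but differed at 10 bases of the loop stretch. Serpina1e differed from the other copies at 10 to 12 loop bases. The closest loops were those of Serpina1c and Serpina1d, with 5 differences.

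Such likeness bears on every count given for a copy. Of all stretches of 50 bases in the annotated transcripts of Serpina1c, 25.8% occurred in no other gene, and the share was 42.4% for Serpina1a, 49.1% for Serpina1d, 65.4% for Serpina1e and 70.5% for Serpina1b. With stretches of 100 bases the shares were 41.5 to 85.6%. For the 3 Serpina3 genes they were 80.9 to 93.1% at 50 bases, and for Serpina6 and Serpina12 they were 100%. How the counting treated reads that match several genes is not given in the sources used here. In addition, 429 exonic bases of Serpina1c (31.5% of its exonic length) overlap B430119L08Rik on the opposite strand, and Serpina3k and Serpina3m share 60 exonic bases on the same strand. Counts of single Serpina1 copies are therefore uncertain, and the total over the 5 copies is given beside them.

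**Figure D1:**
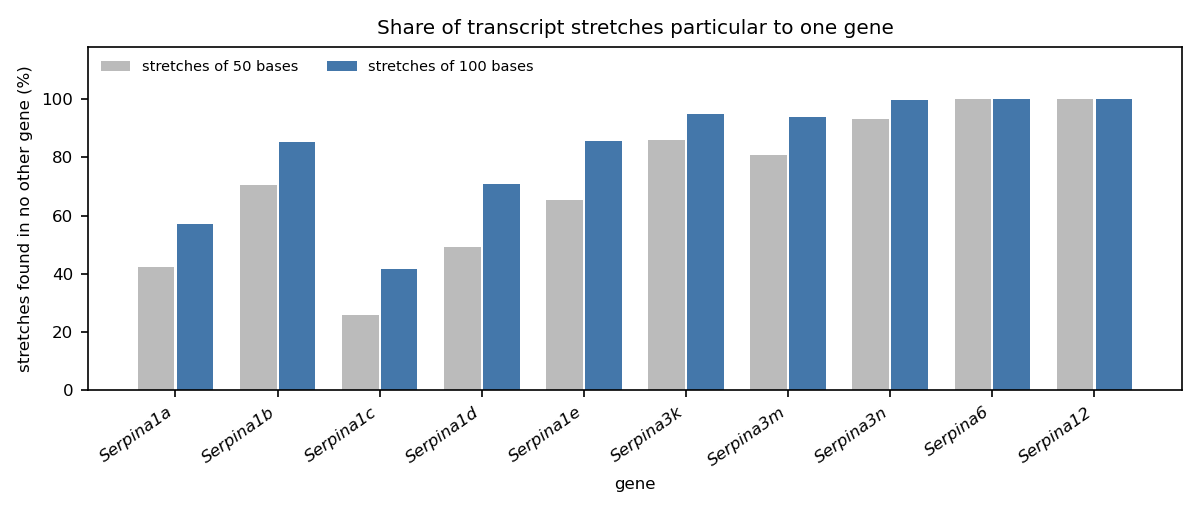
Share (%) of the stretches of 50 bases (grey) and of 100 bases (blue) in the annotated transcripts of each gene that occur in no other gene. Serpina1c has the lowest shares, 25.8 and 41.5%, while Serpina6 and Serpina12 are at 100% for both lengths.

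Gene counts per liver lay between 8124312 and 10527159, and the smallest normalised count of any member was 922, far above the floor of 3 counts. Young replicate 3 and middle-aged replicate 1 had 22284 and 19982 genes with a count, against 16361 to 17563 in the other livers, and mitochondrially encoded genes held 19.2% of counts in young replicate 2, against 5.48 to 10.68% elsewhere. Synthetic spike-in RNAs split the livers into replicates 1 and 2 of each age (set A) and replicates 3 and 4 (set B), with 6 livers per set; over 31 spike-ins r was 0.997 or more inside a set and 0.925 or less across sets. Albumin, transthyretin and the other hepatocyte markers that were found by symbol (9 of 10) all had counts, and their sum was 800962 to 1056859 per liver.

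In young livers the members formed 2 tiers of abundance. Counts per kilobase of exon correct for gene length but not for how reads shared among copies were counted. The order and ranks of the Serpina1 copies are therefore uncertain. Per kilobase the young mean was 75302 ± 8470 normalised counts for Serpina1e and 73851 ± 10209 for Serpina3k (SD, n = 4), ranks 14 and 15 of 28411 genes. These 2 neighbours did not differ beyond their spread. Serpina1b (24889 ± 1001) and Serpina1d (23690 ± 1443) came next and also lay within their spread of each other, followed by Serpina1a (16336 ± 1551) and Serpina1c (11306 ± 363). The lower tier held Serpina3n (1588 ± 480), Serpina3m (1108 ± 170), Serpina12 (744 ± 101) and Serpina6 (688 ± 143) per kilobase, of which Serpina12 and Serpina6 lay within their spread. By 18 months Serpina3k ranked 13th and Serpina1e 20th per kilobase, and Serpina3m had moved from rank 426 to rank 264. All 10 genes together held 4.05 to 4.32% of gene counts in young, 2.89 to 3.62% in middle-aged and 2.18 to 3.89% in aged livers.

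DESeq2 called 3 of the 10 members at an adjusted p under 0.05 between aged and young livers, where 3.58% of all tested genes were called: Serpina3m and Serpina6 rose and Serpina3k fell. Between middle-aged and young livers it called 2 of 10, Serpina6 upward and Serpina3k downward, against 6.41% of all genes. Between aged and middle-aged livers it called 0 of 10, against 1.14% of all genes. There 1 member, Serpina3m, had a DESeq2 p under 0.05 before adjustment, 0.0403. The DESeq2 likelihood ratio test over all 3 ages called Serpina3k, Serpina3m and Serpina6, against 6.96% of all genes. The comparisons of middle-aged and of aged livers share the young livers. The other tool run, edgeR, called only Serpina6 in aged against young livers (1.40% of all genes), in middle-aged against young livers (2.31%) and across the 3 ages (1.89%), and no member between aged and middle-aged livers (0.107%).

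**Figure D2:**
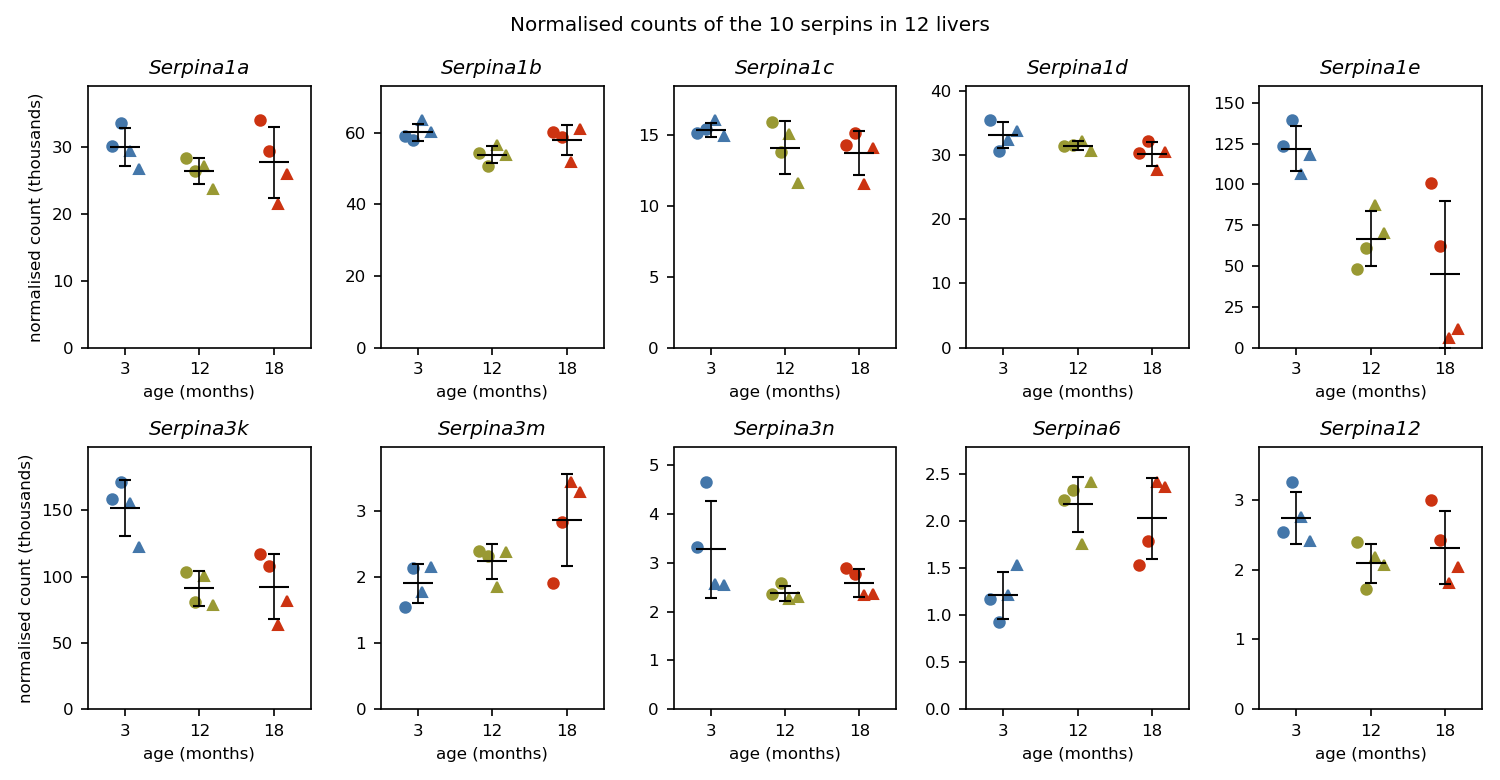
Normalised counts (linear axes from 0, in units of 1000) of each gene in every liver at 3, 12 and 18 months. Circles are replicates 1 and 2, triangles replicates 3 and 4, and the bar and whiskers are the mean and SD of 4 livers. Serpina3k lies lower and Serpina6 higher at 12 and 18 months than at 3 months, while 2 aged livers stand far below the others for Serpina1e.

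**Figure D3:**
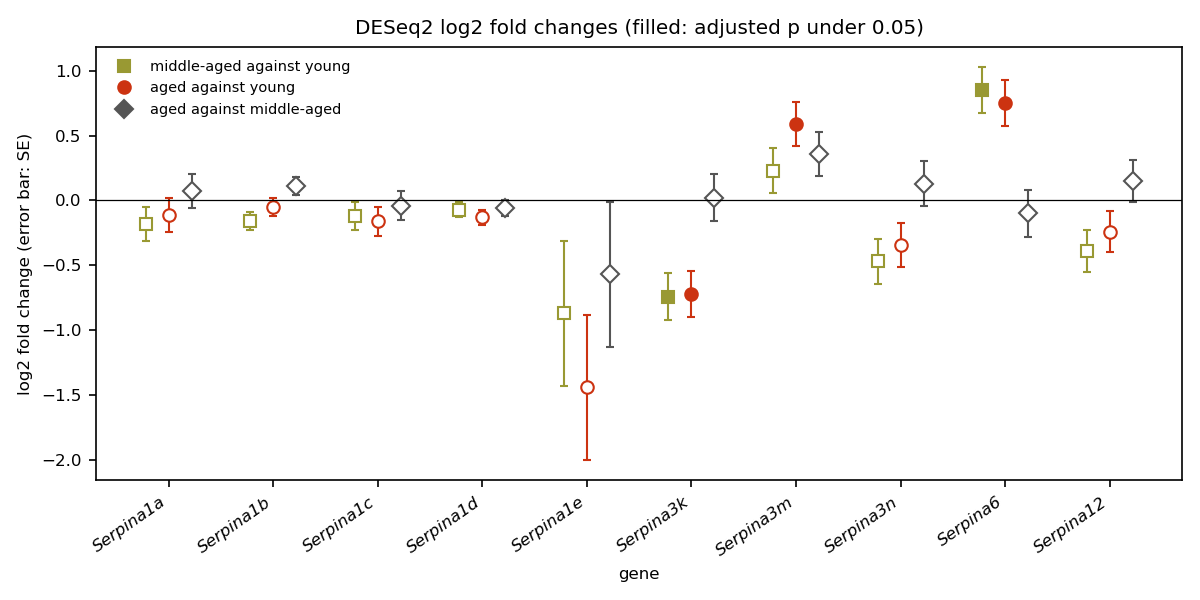
DESeq2 log2 fold changes (error bars, SE) of the 10 genes for each pair of ages; filled symbols passed an adjusted p under 0.05. Serpina3k and Serpina6 are filled in both comparisons with young livers, Serpina3m only for aged against young, and no symbol is filled for aged against middle-aged.

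Serpina1a to Serpina1d are 4 of the antitrypsin copies. At 3, 12 and 18 months their summed count was 138445 ± 2592, 125751 ± 5612 and 129513 ± 11738 (SD, n = 4). None of these copies was called in any pair of ages: between aged and young the log2 fold change was -0.11 for Serpina1a, -0.05 for Serpina1b, -0.16 for Serpina1c and -0.13 for Serpina1d, with DESeq2 adjusted p between 0.27 and 0.777. The 95% intervals of these changes ran from -0.37 at the lowest to 0.14 at the highest.

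Serpina1b, the copy with the most reads of these 4, was at 58973, 57908, 63483 and 60061 in young replicates 1 to 4. It was at 54401, 50735, 56518 and 53713 in middle-aged livers and at 60286, 58696, 51876 and 60895 in aged livers. The middle-aged livers all lay below the young ones (log2 fold change -0.16, SE 0.07, DESeq2 adjusted p = 0.123), whereas aged and young livers overlapped. Serpina1d ranged from 30658 to 35403 in young, 30575 to 32180 in middle-aged and 27593 to 32201 in aged livers. Serpina1a ranged from 26656 to 33559, 23631 to 28260 and 21492 to 33987, and Serpina1c from 14906 to 16055, 11620 to 15935 and 11539 to 15115, so that the ages overlapped for each of these 3 copies.

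Serpina1e had the widest spread of the 5 copies. It was at 123387, 139348, 106397 and 117920 in young livers and at 48160, 61043, 87580 and 70388 in middle-aged livers. In aged livers it was at 100643, 61969, 5792 and 11121. Every middle-aged and aged liver thus lay below every young one, and aged replicates 3 and 4 lay far below all others. The coefficient of variation grew from 11.2% in young to 24.8% in middle-aged and 100.2% in aged livers. The difference did not pass the test at 18 months (log2 fold change against young -1.44, SE 0.56, 95% interval -2.54 to -0.34, DESeq2 adjusted p = 0.137) or at 12 months (-0.87, SE 0.56, DESeq2 adjusted p = 0.372). Without aged replicate 1 the log2 fold change of aged against young was -2.21, and DESeq2 then gave no p for it under its rule on outlying counts.

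The spike-in set moved with this spread. Within set A, Serpina1e differed between aged and young by -0.69 on the log2 scale (SE 0.22, DESeq2 adjusted p = 0.103). In set B it differed by -3.73 (SE 0.40, DESeq2 adjusted p = 4.87e-18), with 2 livers against 2 in each set. The difference between the sets was -3.04 (SE 0.51, DESeq2 interaction, adjusted p = 3.24e-06); of the 10 members only Serpina1e was called in that test, in which 0.732% of genes were called. That test was added after aged replicates 3 and 4 had been seen to stand apart, so its p is no independent evidence of the difference. With the set as a covariate the change was -1.80 (DESeq2 adjusted p = 0.0367). For middle-aged against young the values were -1.27 in set A (DESeq2 adjusted p = 3.22e-06) and -0.52 in set B (0.636), and no member was called for a difference between sets there, where 0.423% of genes were. Aged replicates 3 and 4 are also the only aged livers of set B, so the set and these animals cannot be told apart.

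The make-up of the antitrypsin reads varied with Serpina1e. This copy supplied 43.0 to 50.3% of the reads of the 5 copies in young livers and 27.0 to 40.1% in middle-aged livers. In aged replicates 1 to 4 it supplied 42.0, 31.4, 4.9 and 7.8%. Serpina1b was the leading copy in aged replicates 3 and 4, with 43.9 and 42.7%, against 20.9 to 25.6% in young livers. The 5 copies together were at 260208 ± 12813, 192544 ± 17968 and 174394 ± 54531 at the 3 ages in turn (SD, n = 4). The young totals started at 247676, above the highest middle-aged (218519) and aged (239416) totals. As a share of gene counts, aged replicate 1 (2.55%) instead lay within the young range of 2.53 to 2.67%. The middle-aged livers, at 2.42% or less, stayed below that range. Relative to young livers the difference of the mean log2 totals was -0.63 at 18 months and -0.44 at 12 months. With scaling by total counts it was -0.51 and -0.33. No p is given for this sum, which was formed from chosen members.

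**Figure D4:**
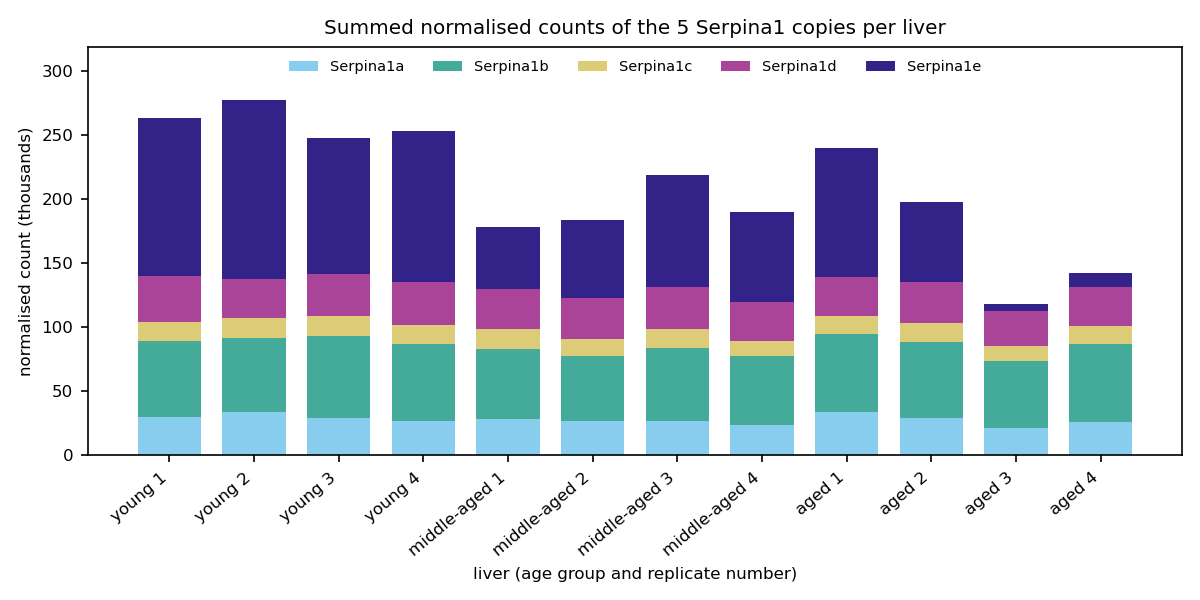
Normalised counts (in units of 1000) of the 5 Serpina1 copies stacked for each of the 12 livers, by age group and replicate number. The Serpina1e segment (dark blue) makes up 43.0 to 50.3% of the bar in young livers and 4.9 and 7.8% in aged replicates 3 and 4, while the other segments keep similar heights.

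The same coding stretch of the loop is printed for the 3 Serpina3 members, to show the bait of each, from GENCODE M21 transcripts, with capitals for the bases between the start (23 bases) and the end (3 bases) that all share.
Serpina3k: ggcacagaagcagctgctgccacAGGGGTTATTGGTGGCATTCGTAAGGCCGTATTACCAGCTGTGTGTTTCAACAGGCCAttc
Serpina3m: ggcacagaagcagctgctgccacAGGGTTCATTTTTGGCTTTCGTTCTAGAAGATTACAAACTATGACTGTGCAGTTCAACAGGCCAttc
Serpina3n: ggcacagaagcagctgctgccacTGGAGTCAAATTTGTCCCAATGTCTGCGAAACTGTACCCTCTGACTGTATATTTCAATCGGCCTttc
The stretch held 84 bases in Serpina3k and 90 in each of the other two. Over the aligned coding sequence Serpina3k and Serpina3m were 91.0% identical, Serpina3m and Serpina3n 85.2%, and Serpina3k and Serpina3n 82.6%. Serpina1e was 57.0 to 59.4% identical to these genes.

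Serpina3k, also known as contrapsin and the member with the most reads, fell with age. It was at 158331, 171567, 155536 and 122210 in young livers. It was at 103749, 80738, 100599 and 78757 in middle-aged livers and at 117011, 107733, 63244 and 81542 in aged livers. No middle-aged or aged liver reached the lowest young one. From 3 to 12 to 18 months the mean was 151911 ± 20999, 90960 ± 13037 and 92383 ± 24554 (SD, n = 4). The log2 fold change was -0.74 for middle-aged against young (SE 0.18, DESeq2 adjusted p = 0.00245) and -0.72 for aged against young (SE 0.18, DESeq2 adjusted p = 0.0048). It was 0.02 for aged against middle-aged (95% interval -0.33 to 0.37). Under edgeR the changes against young kept their size but not the call (edgeR adjusted p = 0.0551 and 0.0794), and the aged change was -0.55 inside set A (DESeq2 adjusted p = 0.102) but -0.94 inside set B (9.13e-08).

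Serpina3m, its closest relative among the members, went the other way. It was at 1550, 2142, 1781 and 2149 in young livers. In middle-aged livers it was at 2399, 2328, 1846 and 2390, and in aged livers at 1906, 2840, 3451 and 3290. Aged replicate 1 lay within the young range and the other 3 aged livers lay above it. The rise between aged and young was 0.59 on the log2 scale (SE 0.17, DESeq2 adjusted p = 0.0271), and the middle-aged level did not pass the test against young (0.23, DESeq2 adjusted p = 0.464). The aged call was the least stable of the 3. It was lost in fits without young replicate 1 (DESeq2 adjusted p = 0.103), young replicate 3 (0.0935), aged replicate 2 (0.07), aged replicate 3 (0.162) or aged replicate 4 (0.128), without independent filtering (0.057), under edgeR (0.0985) and within set A (0.37, DESeq2 adjusted p = 0.963). For every 100 counts of Serpina3k there were 1.28 ± 0.34 of Serpina3m at 3 months, 2.52 ± 0.55 at 12 months and 3.44 ± 1.67 at 18 months (SD, n = 4).

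Serpina3n, a Serpina3 gene that rises in the acute phase response, was at 3325, 4663, 2570 and 2553 in young livers. It was at 2350, 2587, 2251 and 2306 in middle-aged livers and at 2900, 2771, 2332 and 2355 in aged livers. Young replicates 1 and 2 were the highest of all and the ages overlapped. It did not pass the test between middle-aged and young (log2 fold change -0.47, SE 0.17, DESeq2 adjusted p = 0.0725) or between aged and young (-0.34, DESeq2 adjusted p = 0.299). With the spike-in set as a covariate the first change was -0.43 with a DESeq2 adjusted p of 0.018, and without young replicate 3 or young replicate 4 it was -0.56 and -0.57 (DESeq2 adjusted p = 0.0382 and 0.0244). Young replicate 2, where Serpina3n peaked, also had the highest sum of 8 neutrophil markers, 314.6 against 12.5 to 95.3 in the other livers, and the highest sum of 10 Kupffer cell markers, 6485 against 3155 to 6214. Their part in the level of Serpina3n was not tested.

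Serpina6, the gene of corticosteroid-binding globulin, rose. It was at 1173, 922, 1212 and 1536 in young livers. In middle-aged livers it was at 2221, 2332, 1760 and 2418, and in aged livers at 1537, 1795, 2422 and 2366. All 8 older livers lay above the young ones, although aged replicate 1 (1537) did so by a narrow margin. Its mean was 1211 ± 252 at 3 months, 2183 ± 293 at 12 months and 2030 ± 434 at 18 months (SD, n = 4). The log2 fold change was 0.85 for middle-aged against young (SE 0.18, DESeq2 adjusted p = 0.000265, edgeR adjusted p = 0.0239). It was 0.75 for aged against young (SE 0.18, DESeq2 adjusted p = 0.00263, edgeR adjusted p = 0.0485). Within the sets the aged change was 0.67 in set A (DESeq2 adjusted p = 0.0413) and 0.80 in set B (DESeq2 adjusted p = 0.000101).

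Serpina12 encodes vaspin, a serpin secreted by fat and liver that inhibits kallikreins. It was at 2548, 3267, 2755 and 2415 in young livers. It was at 2402, 1722, 2184 and 2066 in middle-aged livers and at 2997, 2432, 1807 and 2038 in aged livers. The middle-aged livers all lay below the young ones, by a narrow margin for middle-aged replicate 1, and aged livers overlapped both. The change did not pass the test for middle-aged against young (log2 fold change -0.39, SE 0.16, DESeq2 adjusted p = 0.117) or aged against young (-0.24, DESeq2 adjusted p = 0.495). Without aged replicate 1, which changes the shared estimate of the spread, the middle-aged comparison gave the same -0.39 with a DESeq2 adjusted p of 0.0388. Serpina6 and Serpina12 share no stretch of 50 bases with another gene, so the doubt over split reads does not touch them.

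Across the 12 livers some pairs of members varied closely together or in opposition, and others only weakly. As a description over livers that share age groups and spike-in sets, Pearson's r of log2(normalised count + 1) was -0.95 between Serpina3k and Serpina6, 0.88 between Serpina3k and Serpina12 and -0.85 between Serpina1e and Serpina3m. Among the weak pairs it was 0.19 between Serpina1d and Serpina3n and 0.25 between Serpina1b and Serpina3n. Of 8878 other genes, those whose levels followed Serpina1e most closely were Enho (r = 0.971), which encodes the secreted peptide adropin, and Cdh1 (0.969), which encodes E-cadherin. Enho was at 409.7 to 731 in young, 285 to 516.2 in middle-aged and 602.1, 300.5, 28.84 and 66.15 in aged livers, so that aged replicates 3 and 4 were again the lowest. The pattern of the 5-copy total was followed best by Selenbp2 (0.984) and Fkbp11 (0.974). Serpina3k was followed by Chid1 (0.977) and the complement gene C8b (0.976), Serpina3m by the prolactin receptor gene Prlr (0.936) and Zfp62 (0.927), and Serpina6 by the transporter genes Slc17a8 (0.962) and Slc16a7 (0.952). For Serpina3n they were Tango2 (0.96) and the serum amyloid gene Saa4 (0.946), and for Serpina12 Gss (0.959), of glutathione synthesis, and Cript (0.942). For the other antitrypsin copies the nearest genes were Drg2 (0.956) and Lypla2 (0.937) for Serpina1a, Eif1ad (0.892) and Mydgf (0.859) for Serpina1b, Psph (0.892) and Arl6ip1 (0.891) for Serpina1c, and the transporter gene Slco1a1 (0.902) and Gjb1 (0.886) for Serpina1d.

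Other serpins gave context for these values. Of the 36 calls named below for genes outside the members with a mean of at least 50, 11 held in each of the 12 fits that left out 1 liver and 13 under edgeR. Between aged and young livers, the calls that held in every such fit were those of Serpina4-ps1, Itih4, Cp, Il1r1, Zbtb16 and Tff3. Between middle-aged and young livers they were those of Il1r1, Elovl3, Cyp7b1, Zbtb16 and Tsc22d3. Every other call was lost or had no p in 1 or more of these fits. Of 17 further clade A genes, 9 were tested between aged and young: Serpina7, the gene of thyroxine-binding globulin, rose, and Serpina4-ps1 and Serpina9 fell. Serpina7 was at 184.7, 86.6, 112.6 and 545.7 at 3 months and at 422.5, 629, 1779 and 1478 at 18 months. The log2 fold change was 2.21 (DESeq2 adjusted p = 0.037), a call lost in 8 of the fits without 1 liver. Its 2 highest livers, aged replicates 3 and 4, were the 2 with the least Serpina1e. Serpina4-ps1, an annotated pseudogene, fell in aged livers (log2 fold change -2.53, DESeq2 adjusted p = 0.00166) and in middle-aged ones (-2.04, DESeq2 adjusted p = 0.0142). Serpina9 had a mean of 27.55 in young and of 7.16 in aged livers and is named because it completes the count, after its values were seen. Of secreted serpins from other clades, which include antithrombin, none of 8 tested was called in aged and none of 7 in middle-aged livers. The shares of all tested genes called were 3.58% and 6.41%, so with so few genes this is no evidence of steady levels. The median log2 fold change between aged and young was -0.15 over the 10 members, -0.87 over the 9 further clade A genes and 0.10 over the 8 other serpins, beside -0.0003 over all 13527 genes tested.

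Genes of the inhibitors' surroundings were counted in the same fit. For these and the lists below, 3.58% of all tested genes were called between aged and young livers. The share was 6.41% between middle-aged and young and 1.14% between aged and middle-aged livers. In short lists, 0 calls are therefore no evidence of steady levels. Of 16 listed serine proteases that serpins can meet, such as thrombin and plasma kallikrein, 10 were tested between aged and young and 0 were called. The neutrophil elastase gene Elane, also listed, was not among those tested and had at most 2.123 normalised counts in any liver. Of 22 genes of antitrypsin folding, export, degradation and uptake, 0 were called in aged livers. In middle-aged livers, where 6.41% of all genes were called, 1 rose, Lrp1 (log2 fold change 0.43, DESeq2 adjusted p = 0.0181), the receptor that clears serpin and protease complexes. Mcfd2, part of the cargo receptor of the early secretory route, rose from 12 to 18 months by 0.20 on the log2 scale (DESeq2 adjusted p = 0.0484), a call lost in all 12 fits without 1 liver.

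Acute phase genes moved in both directions. Of 23 tested between aged and young, 3 rose (Hamp 0.80, Itih4 0.52 and Cp 0.42) and 2 fell (Orm2 -1.19 and Orm1 -0.66, DESeq2 adjusted p = 0.0439 and 0.0205). Without young replicate 2, Orm2 was at -0.76 (DESeq2 adjusted p = 0.324). Between middle-aged and young, 0 of 22 rose and 6 fell, led by the serum amyloid genes Saa1 (-2.97), Saa2 (-2.90) and Saa4 (-0.78). Saa1 was at 4033 in young replicate 2 and at 381.5 to 729.2 in the other young livers, and that liver was also the highest for Serpina3n. Saa2 was at 2014 there and at 124.4 to 323.1 in the other young livers. Without young replicate 2 the log2 fold change was -1.67 for Saa1 (DESeq2 adjusted p = 0.0188), -1.23 for Saa2 (0.0519) and -0.43 for Saa4 (0.198). Fga, a fibrinogen gene, rose from 12 to 18 months (0.48, DESeq2 adjusted p = 0.0344), a call lost in 6 fits without 1 liver. The 16 genes listed for interleukin-6 and STAT3 signalling included Il1r1, which encodes a receptor of interleukin-1 and not of interleukin-6. Of these 16, 2 fell in aged livers, Il1r1 (-2.06) and the receptor gene Lifr (-0.64). In middle-aged livers 3 of 15 fell, Il1r1 (-1.68), Cebpd (-0.90) and Lifr (-0.61). Il6ra, Il6st and Stat3 themselves were not called in aged livers (-0.54, 0.08 and 0.01, DESeq2 adjusted p = 0.322, 0.852 and 0.995).

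The growth hormone axis, which sets the male pattern of many liver genes through pulses of the hormone, was examined beside Serpina1e. Of 16 genes tested between aged and young, 2 rose (Cyp2b9 and Stat5a) and 2 fell (Elovl3 and Cyp7b1). Cyp2b9, a cytochrome P450 gene with female-biased expression, was at 629.2 and 397.8 in aged replicates 3 and 4 and at no more than 13.9 in the other 10 livers. Its log2 fold change was 6.10 with an SE of 1.73 (DESeq2 adjusted p = 0.0198). Without aged replicate 3 or aged replicate 4 it was 5.15 and 5.81, for which DESeq2 gave no adjusted p. Those were the 2 livers in which Serpina1e was at 5792 and 11121. Cyp7b1, a male-biased hydroxylase gene, fell at 18 months (-0.84, DESeq2 adjusted p = 0.037) and at 12 months (-1.13, DESeq2 adjusted p = 0.00103). Elovl3, of fatty acid elongation, fell at the same ages (-0.87 and -1.33, DESeq2 adjusted p = 0.00879 and 2.53e-06), and Stat5a rose by 0.59 in aged livers (DESeq2 adjusted p = 0.0261). Of 20 listed symbols, 18 had a count.

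**Figure D5:**
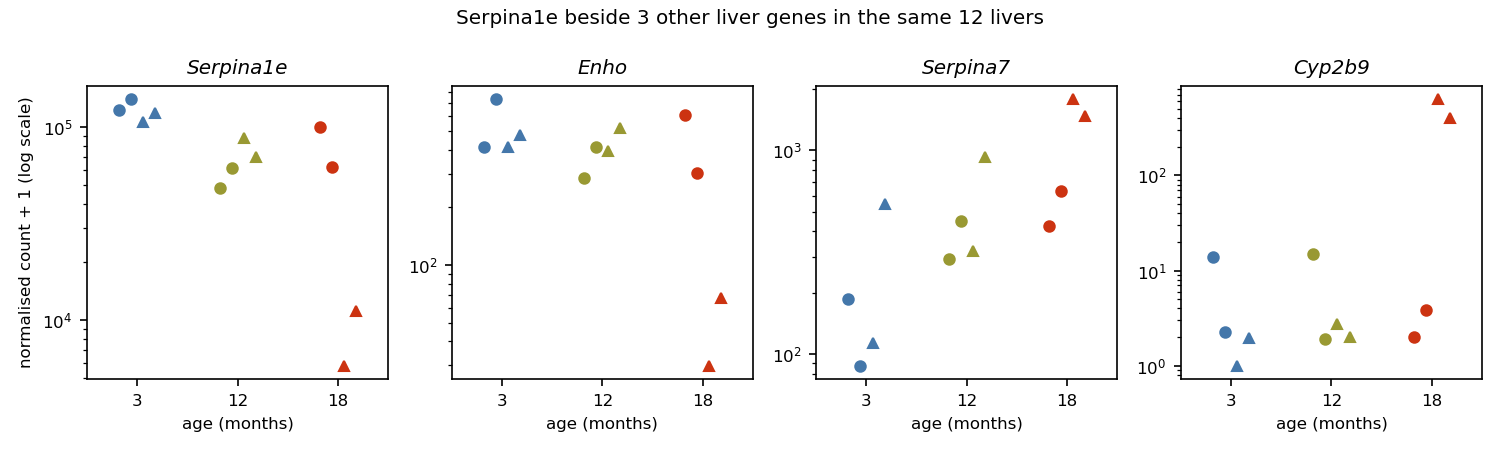
Normalised counts plus 1 (log axes) of Serpina1e, Enho, Serpina7 and Cyp2b9 in each liver at 3, 12 and 18 months. Circles are replicates 1 and 2 and triangles replicates 3 and 4. Aged replicates 3 and 4 are lowest for Serpina1e and Enho and highest for Serpina7 and Cyp2b9.

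Genes that handle or answer to glucocorticoids, the ligands of corticosteroid-binding globulin, were listed beside Serpina6. In middle-aged livers the receptor gene Nr3c1 rose (log2 fold change 0.39, DESeq2 adjusted p = 0.0306), and the receptor targets Zbtb16 (-2.13, DESeq2 adjusted p = 7.56e-10) and Tsc22d3 (-1.04, DESeq2 adjusted p = 0.000678) fell, out of 13 tested. The Nr3c1 call was lost or had no p in 7 fits without 1 liver. In aged livers Zbtb16 alone was called of 14 tested (-1.99, DESeq2 adjusted p = 1.91e-08). Zbtb16 was at 346, 303.1, 128 and 305.6 in young livers and at 49.45 to 95.36 in the 8 older ones, which did not overlap. Of 14 tested genes of the hepatocyte nuclear factor list, 0 were called in aged livers and 1 rose in middle-aged livers, where 6.41% of all genes were called, Nr5a2 (0.45, DESeq2 adjusted p = 0.0132).

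Markers of other cells were read as sums of normalised counts per liver. Kupffer cell markers (10 of 10 above 0) summed to 3604 to 6485 in young, 3155 to 4275 in middle-aged and 3723 to 6214 in aged livers. Sinusoidal endothelial markers (8 of 8) summed to 1812 to 3039, 1833 to 2179 and 2021 to 2237, and stellate cell markers (8 of 8) to 1731 to 3473, 2216 to 4257 and 1986 to 3595. Biliary markers (8 of 8) summed to 373.9 to 704.3, 130.1 to 475.1 and 229.7 to 410.7, and lymphocyte markers (8 of 8) to 160.3 to 274.9, 119.1 to 427.4 and 120.4 to 211.5. Neutrophil markers (8 of 8) summed to 32.22 to 314.6 in young, 13.9 to 31.07 in middle-aged and 12.52 to 95.34 in aged livers. Every middle-aged liver lay below every young one, but by a narrow margin (31.07 against 32.22), and the aged livers overlapped both. Pancreas and fat markers, of which Amy2a5 was at 0 in every liver, summed to 528.9 in middle-aged replicate 3 and to 1.93 to 65.17 in the others. Apart from the neutrophil markers, the ranges of the ages overlapped for each of these lists. Among single markers, 4 were called. Tff3, a biliary marker, fell at 18 months (log2 fold change -4.06, DESeq2 adjusted p = 0.000224) and at 12 months (-3.47, DESeq2 adjusted p = 0.00177). Sox9, also biliary, rose in aged livers against young (0.86, DESeq2 adjusted p = 0.0169) and against middle-aged ones (0.95, DESeq2 adjusted p = 0.0117). The Kupffer cell marker Marco rose in aged livers (2.46, DESeq2 adjusted p = 0.0178), where it was at 790.8, 104, 96.13 and 261, and without aged replicate 1 the change was 1.43 (DESeq2 adjusted p = 0.0273). The hepatocyte marker Arg1 fell in aged livers (-0.32, DESeq2 adjusted p = 0.0312), a call lost or without a p in 6 fits that left out 1 liver. The part of these markers in the members' levels was not tested.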

How the data were processed

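The authors deposited one table of whole-number read counts per gene for the 12 livers, with 53465 gene rows and 92 spike-in rows and no normalisation. The submitters' processing notes name STAR 2.5.2b, SAMtools 1.9, featureCounts, R 3.6.3, edgeR 3.28.1 and DESeq2 1.26.0 with builds mm10 and GRCm38. The counting of strand and of multi-mapped reads is not given in the sources used here. The labels describe RNA extraction with a column kit and directional libraries, for young and old livers only. The study describes such a preparation for RNA-seq of young and old livers from its own mice. It credits its RNA-seq that includes middle-aged livers to a public atlas. The preparation of these livers is therefore uncertain.

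Age groups and replicate numbers came from the sample titles, and the ages in months are those the study gives for young, middle-aged and aged mice. The fit used DESeq2 1.42.0 in R 4.3.3 on 28449 genes with a count, all 12 livers, age as the only term, the Wald and likelihood ratio tests, and Benjamini-Hochberg adjustment over all genes tested. The SD covers 4 livers. The p-values weigh a difference between ages against the spread between animals, through an estimate for each gene that all ages in a fit share. For Serpina1e, whose spread grew with age, that shared estimate does not describe each age. Intervals are 95% and normal on the log2 scale. Symbols, positions and transcripts came from GENCODE M21 (53360 identifiers found); promoter windows, from RefSeq, existed for 7 members. Named genes were the 10 members, up to 3 rising and 3 falling called genes per list with a mean of at least 50, and the 2 genes nearest to each member by r. Members and lists were chosen with earlier results of these data known. Alternatives were edgeR 4.0.16 with TMM, TMM factors in DESeq2, a filter of 10 counts in 4 livers, no independent filtering, a replicate block, the spike-in set as covariate, each set alone and each liver left out; the fit without young replicate 3 and middle-aged replicate 1 together, the age by set interaction and the named list genes under each setting were added after seeing the data. Scripts were tested on simulated data.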

Additional observations from a re-analysis of the deposited data

Results flagged for a closer look

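The level of Serpina3m in middle-aged replicate 3, 1846 normalised counts, lay far from the other 3 middle-aged livers (2328 to 2399): its gap to the nearest of them, divided by the range, was 0.872, above Dixon's 95% value for 4 samples. It was the only one of 39 groups of 4 livers singled out in this way, where chance gives about 1.95.

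The change of Serpina1e between aged and young livers differed between the spike-in sets by -3.04 on the log2 scale (set B minus set A, DESeq2 interaction adjusted p = 3.24e-06), a test added after aged replicates 3 and 4 had been seen to stand apart. Aged replicates 3 and 4 were at 5792 and 11121, and aged replicates 1 and 2 at 100643 and 61969.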

How the results depend on the processing

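Of 270 values of single members under other settings than leaving out a liver, 246 kept their direction and their side of the threshold, 8 changed direction, 9 became called and 7 lost the call; of 360 with a liver left out, 341 kept both, 9 changed direction, 5 became called and 5 lost the call. For aged against young, edgeR called 1 member, set A alone 1 and set B alone 5, against 3. For middle-aged against young, edgeR called 1 and set A alone 4, against 2. For aged against middle-aged, set B alone called 2 (Serpina1e and Serpina3m), and leaving out a liver gave 0 to 1: without aged replicate 1 Serpina3m was called (0.51, DESeq2 adjusted p = 0.0179). Across the 3 ages edgeR called 1 and leaving out a liver 2 to 4, against 3. Fewer livers enter the fits within a set, and the cause of any of these changes was not tested.

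Changes of direction concerned differences that were small in the main fit, apart from Serpina1e between aged and middle-aged livers. There the main fit gave -0.57 (SE 0.56). Aged against young, Serpina1b was at 0.03 within set A. For aged against middle-aged, set B alone gave -0.09 for Serpina1a, -0.30 for Serpina3k, 0.20 for Serpina6 and -0.14 for Serpina12, set A alone gave 0.58 for Serpina1e, the set as covariate gave -0.01 for Serpina3k, and leaving out young replicate 3 with middle-aged replicate 1 gave 0.03 for Serpina1c. Leaving out a liver there gave -0.04 to 0.18 for Serpina1a, -0.12 to 0.04 for Serpina1c, -0.11 to 0.17 for Serpina3k, -0.20 to 0.01 for Serpina6 and -0.0007 to 0.25 for Serpina12. Without aged replicate 3, Serpina1b in middle-aged livers gave -0.16 with a DESeq2 adjusted p of 0.0491.

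Same-numbered livers did not deviate together (correlations -0.303 to 0.159 over 8888 genes), so the numbers do not pair them. With the replicate block 3, 3, 0 and 3 members were called in the comparisons aged against young, middle-aged against young, aged against middle-aged and across the 3 ages, Serpina3n being added in the second (-0.43, DESeq2 adjusted p = 0.0422); over all genes the block moved the calls from 484 to 655, 727 to 385, 117 to 426 and 865 to 451. Depth did not limit the members, all of which lay far above the floor. How reads shared among the Serpina1 copies were split is not given in the sources used here.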
